A study of Mus musculus with 16 samples.

Results

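The genes Cd300e, Treml4, Spn, Ly6c2, Plac8 and Chil3 mark the patrolling and classical subsets of mouse blood monocytes. They were selected on measured values, after Cd300e and Treml4 had been seen to be higher in Fcgr2b-ko than in WT kidneys, and every probe annotated to a transcript of one of the 6 genes was taken. This gave 6 of 22911 named genes and 9 of 56605 probes, namely 3 for Spn, 2 for Treml4 and 1 for each of the others. Of the 9 probes, 8 were well above background on at least 4 of 16 arrays and entered the fit, which held 35628 probes.

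Kidney RNA of 16 mice, labelled as 6 months old though the study's own legend gives a wider range of ages, was hybridised to one-colour arrays, 1 mouse per array and 4 mice per genotype. WT and Sting-ko mice were C57BL/6, while Fcgr2b-ko mice, labelled as lupus mice, and double-deficient mice (Fcgr2b-ko, Sting-ko) were of 129/C57BL/6 background, so loss of Fcgr2b and strain background cannot be told apart. Per the study's methods the Sting-ko allele was Goldenticket (Sting gt/gt), the WT mice were purchased, and the heading used for the Fcgr2b-ko mice also carries Sting wt/gt, which the sample labels do not state. Per the study the kidneys were taken without perfusion, so RNA of blood monocytes and of monocytes in the tissue cannot be told apart. All 9 kidney marker genes tested were well above background on all 16 arrays. Because whole tissue was measured, fewer cells of a type and less RNA per cell cannot be told apart.

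Monocytes leave the bone marrow as classical cells, which carry much Ly6C on the surface, enter inflamed tissue and can become macrophages. Part of them turn into patrolling cells, which lose Ly6C, depend on the nuclear receptor Nr4a1, and crawl along the inside of small vessels, the renal capillaries among them. Cd300e and Treml4 encode surface receptors of myeloid cells, the latter a relative of the Trem receptors, and Spn encodes CD43, a sialoglycoprotein abundant on patrolling cells. Ly6c2 encodes the Ly6C antigen, Plac8 a small cysteine-rich protein of classical monocytes and other leukocytes, and Chil3 the secreted chitinase-like protein Ym1.

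The promoters of Cd300e and Treml4 are shown because the levels of these genes moved together from mouse to mouse. RefSeq sequence of build GRCm38.p6 covers 250 bases before to 50 bases after the annotated start, at chr11:115061990-115062289 on the minus strand for Cd300e and at chr17:48264045-48264344 on the plus strand for Treml4. Both are written 5′ to 3′ in the direction of transcription. Capitals mark matches, on either strand, to AGGAAGT, a motif of PU.1 and other ETS factors, or to TTGNGNAA, a C/EBP-type motif.

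Cd300e: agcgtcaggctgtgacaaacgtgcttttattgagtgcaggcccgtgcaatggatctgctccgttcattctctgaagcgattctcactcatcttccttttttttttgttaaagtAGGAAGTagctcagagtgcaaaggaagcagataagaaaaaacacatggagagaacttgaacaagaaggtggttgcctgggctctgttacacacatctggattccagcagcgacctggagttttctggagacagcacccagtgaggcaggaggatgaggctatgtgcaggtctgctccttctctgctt

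Treml4: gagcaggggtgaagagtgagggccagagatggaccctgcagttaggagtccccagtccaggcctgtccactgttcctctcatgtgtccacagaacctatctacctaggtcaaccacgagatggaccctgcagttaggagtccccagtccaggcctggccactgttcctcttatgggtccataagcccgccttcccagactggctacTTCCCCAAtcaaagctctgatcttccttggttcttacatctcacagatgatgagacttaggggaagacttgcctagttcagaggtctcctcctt

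AGGAAGT was found once in the Cd300e window, starting at position -137 relative to the start, and not in the Treml4 window. TTGNGNAA was found once in the Treml4 window, starting at position -44, and not in the Cd300e window. Over the 8 windows listed for the 6 genes, 5 windows of 4 genes (Cd300e, Spn, Ly6c2 and Chil3) held AGGAAGT, against 9.35% of all 32817 promoter windows. The Ly6c2 windows among these overlap and hold the same matches, and enrichment was not tested. TTGNGNAA was held by 3 windows of Treml4 and Ly6c2, the windows of the latter overlapping, against 13.3% of all windows. AAGGTCA, the core that NR4A receptors bind, was in none of the 8 windows and in 4.72% of all. GAAANNGAA, an interferon-stimulated response element, was in the Chil3 window and in 8.55% of all.

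Levels are log2 signals from which the 75th percentile of all probes of that array was subtracted, and they compare mice for 1 probe, not genes with each other. Among the patrolling markers, Cd300e stood at -2.79, -4.08, -4.48 and -3.77 in the WT mice, and at 2.22, -0.84, -0.65 and 2.38 in the Fcgr2b-ko mice. It stood at -1.38, -1.74, -1.02 and -1.76 in the double-deficient mice, and at -3.08, -3.48, -5.39 and -3.86 in the Sting-ko mice. The order of the means was Fcgr2b-ko, double-deficient, WT and Sting-ko. WT and Sting-ko overlapped, and every other pair of genotypes was separate, although Fcgr2b-ko and double-deficient were only 0.18 apart at their nearest mice. The signal was not well above background in WT replicate 3 and Sting-ko replicate 3, the lowest mouse of each of those groups.

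Treml4 stood at -2.30, -3.38, -4.00 and -3.02 in WT and at 2.06, -0.98, -0.78 and 1.46 in Fcgr2b-ko mice. It stood at -1.24, -1.29, -0.74 and -1.40 in double-deficient and at -1.94, -3.15, -3.49 and -3.27 in Sting-ko mice. Fcgr2b-ko was again highest and double-deficient next, and these neighbours overlapped, as did Sting-ko and WT. All 16 arrays were well above background for this probe. The other Treml4 probe was well above background on 1 of 16 arrays only, Fcgr2b-ko replicate 4, and was not fitted.

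Spn, by its brightest probe, stood at -0.26, -2.15, -1.71 and -1.36 in WT and at 2.52, -0.28, 0.63 and 2.26 in Fcgr2b-ko mice. It stood at -0.36, -0.03, 0.35 and -0.29 in double-deficient and at 0.39, -0.88, -0.76 and -0.63 in Sting-ko mice. Each genotype overlapped its neighbours in the order Fcgr2b-ko, double-deficient, Sting-ko and WT. The 3 Spn probes did not behave alike. Across the 16 mice the dimmest probe followed the brightest (Pearson r = 0.95) while the other correlated less with the brightest (r = 0.60).

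Among the classical markers, Ly6c2 stood at 8.41, 7.95, 7.19 and 6.97 in WT, and at 7.59, 7.46, 7.33 and 7.30 in Fcgr2b-ko mice. It stood at 7.24, 8.47, 6.86 and 7.38 in double-deficient, and at 7.65, 6.99, 7.55 and 6.66 in Sting-ko mice. All genotypes overlapped. A probe of Ly6c1, the near-identical neighbour gene that is known from endothelium, differed from it by at most 0.10 on any array (r = 0.998 over 16 arrays), while the second Ly6c1 probe followed it less (r = 0.661). Whether the closely matching probes share a target was not tested, and the Ly6c2 values are uncertain for that reason.

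Plac8 stood at 3.65, 1.78, 1.98 and 2.28 in WT and at 5.46, 2.98, 1.76 and 4.46 in Fcgr2b-ko mice. It stood at 2.49, 3.30, 2.36 and 1.63 in double-deficient and at 3.8, 2.13, 1.72 and 1.80 in Sting-ko mice. All genotypes overlapped, and Fcgr2b-ko replicate 3 was lower than every WT mouse.

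Chil3 stood at -2.06, -3.87, -3.44 and -4.04 in WT and at 2.71, -1.61, -3.04 and 1.08 in Fcgr2b-ko mice. It stood at -2.82, -1.93, -2.34 and -3.09 in double-deficient and at -3.59, -3.57, -2.31 and -4.87 in Sting-ko mice, the last of which was not well above background. Fcgr2b-ko replicates 1 and 4 were the highest of all 16 mice, replicate 3 lay within the range of the other genotypes, and replicate 2 was just above it.

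**Figure D1:**
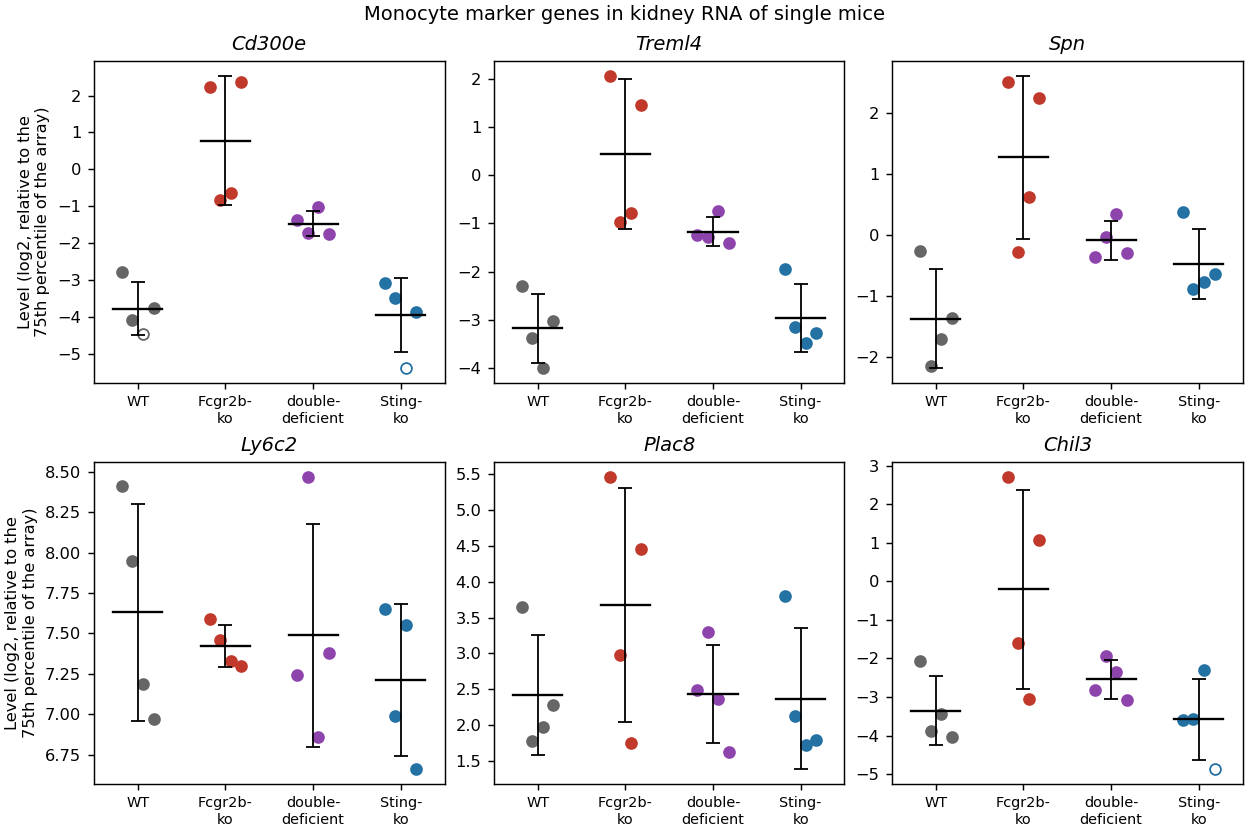
Level of the brightest probe of each gene in every mouse, as log2 signal scaled to the 75th percentile. Filled circles are arrays well above background, open circles are not, and lines and bars are mean and SD of 4 mice. For Cd300e and Treml4 the double-deficient mice sit above all WT and Sting-ko mice, whereas Ly6c2 overlaps in all genotypes.

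In Fcgr2b-ko against WT kidneys, the contrast on which the genes were chosen, 5 of 6 genes had the higher mean in Fcgr2b-ko mice, and the values are given as a description. The log2 difference was 4.56 (SE 0.70) for Cd300e, 3.62 (SE 0.61) for Treml4, and 2.65 (SE 0.56) for Spn. For Spn it was 1.03 with the median over its probes. The second brightest Spn probe, well above background on all 16 arrays, gave 0.75 (SE 0.42). The dimmest gave 2.95 (SE 0.52) without overlap, and was well above background in 1 of 4 WT mice. The classical markers were more varied, with 3.14 (SE 0.95) for Chil3, 1.24 (SE 0.70) for Plac8 and -0.21 (SE 0.37) for Ly6c2. By their brightest probes, Cd300e and Treml4 did not overlap between these groups, a pattern found in the same direction in 0.62% of tested probes. Calls by limma (adjusted p under 0.05 and at least 2-fold) made up 0.0505% of tested probes, and 3.35% had an unadjusted p under 0.05.

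Fcgr2b-ko replicates 1 and 4 were the highest of their group for Cd300e, Treml4, Spn, Plac8 and Chil3. Without both, the log2 difference from WT was 3.04 for Cd300e, 2.29 for Treml4, 1.54 for Spn and 1.03 for Chil3, while for Plac8 it was -0.05. Cd300e and Treml4 were higher in each of the remaining Fcgr2b-ko mice than in every WT mouse.

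Double-deficient kidneys, compared with Fcgr2b-ko kidneys, address what loss of STING changed on the Fcgr2b-deficient background. The log2 difference was -2.25 (SE 0.70) for Cd300e, -1.61 (SE 0.61) for Treml4, -1.36 (SE 0.56) for Spn, -2.33 (SE 0.95) for Chil3, -1.22 (SE 0.70) for Plac8 and 0.07 (SE 0.37) for Ly6c2. By their brightest probes, Cd300e alone of the 6 genes did not overlap, against 0.281% of tested probes lower without overlap in the double-deficient mice. The dimmest Spn probe, well above background in 3 of 4 double-deficient mice, also did not overlap (-1.72, SE 0.52). No probe of the array was called by limma (0.0%), and 645 probes had an unadjusted p under 0.05. Without Fcgr2b-ko replicates 1 and 4 the differences shrank to -0.73 for Cd300e, -0.29 for Treml4, -0.26 for Spn and -0.22 for Chil3, and that of Plac8 became 0.07.

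Relative to WT, double-deficient mice had log2 differences of 2.31 (SE 0.70) for Cd300e, 2.01 (SE 0.61) for Treml4 and 1.29 (SE 0.56) for Spn, and of 0.81 or less for the classical markers. Sting-ko mice differed from WT by -0.17 (SE 0.70) for Cd300e, 0.21 (SE 0.61) for Treml4 and 0.90 (SE 0.56) for Spn. In either comparison limma called 0.0% of probes, and an unadjusted p under 0.05 was found for 151 probes in the former and 1339 in the latter. Both share their control mice with the contrast that chose the genes, and no test was made on the genes.

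Double-deficient against Sting-ko kidneys asks whether the genes differed by Fcgr2b genotype where STING was missing in both groups. None of these 8 mice is in Fcgr2b-ko against WT, but results of all 16 mice were known when the genes were chosen, so the tests below are not independent evidence for Cd300e and Treml4. Cd300e was 5.57-fold higher in the double-deficient mice (log2 difference 2.48, SE 0.70, 95% interval 0.98 to 3.97) and Treml4 3.47-fold higher (1.79, SE 0.61, 95% interval 0.50 to 3.09). With normexp background correction the log2 differences were 1.23 and 0.98. For both genes the lowest double-deficient mouse was above the highest Sting-ko mouse. The exact two-sided permutation test gave p = 0.029 for each, the smallest value that 4 against 4 mice allow. Over all tested probes neither passed, with a limma adjusted p of 0.885 for both and unadjusted p of 0.00302 for Cd300e and 0.00965 for Treml4.

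The 2 of 6 genes without overlap are to be read beside 508 of 35628 tested probes, 1.43%, that were higher without overlap in the double-deficient mice. When a mean difference of at least 2-fold was also asked, 80 probes (0.225%) remained, the Cd300e and Treml4 probes among them. No probe was called by limma in this contrast (0.0%), and 1085 had an unadjusted p under 0.05. Strain background differed between the groups in the same way as Fcgr2b genotype.

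The other genes did not separate these groups. The log2 difference was 0.39 for Spn (95% interval -0.80 to 1.57, exact permutation p = 0.314) and 1.04 for Chil3 (-0.98 to 3.06, exact permutation p = 0.171). It was 0.27 for Ly6c2 (-0.53 to 1.07, exact permutation p = 0.600) and 0.08 for Plac8 (-1.42 to 1.58, exact permutation p = 0.857). Their limma adjusted p lay between 0.885 and 0.985. The intervals still contain differences of 2-fold and more.

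Each slide held mice of every genotype. Cd300e was higher in double-deficient than in Sting-ko mice by 1.90 on the first slide (1 against 2 mice) and by 3.12 on the second (3 against 2 mice), and Treml4 by 1.31 and 2.24. With slide as a block the log2 differences were 2.73 (SE 0.65) and 1.98 (SE 0.58), with limma adjusted p of 0.811 for both. Spn, Ly6c2 and Plac8 had opposite signs on the slides. In Fcgr2b-ko against WT the difference on the first and second slide was 4.69 and 3.48 for Cd300e and 3.69 and 2.73 for Treml4, and 4.31 and 3.43 with slide as a block. In double-deficient against Fcgr2b-ko it was -2.63 and -0.86 for Cd300e and -2.09 and -0.36 for Treml4, and -1.75 and -1.23 with the block. On the second slide, which held Fcgr2b-ko replicate 3 alone of its group, Chil3 and Plac8 were higher in the double-deficient mice, by 0.59 and 0.67.

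**Figure D2:**
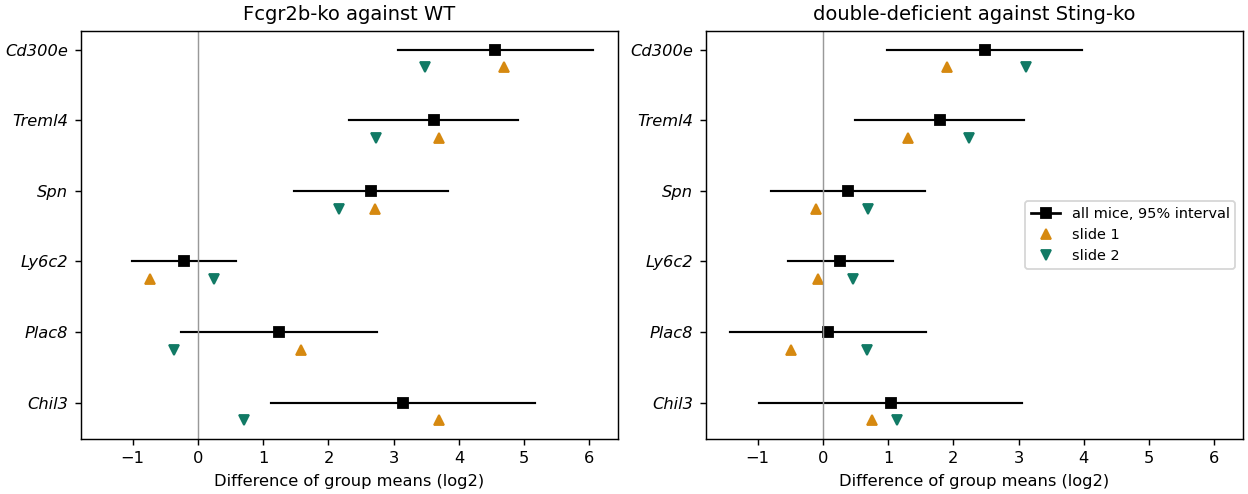
Log2 difference of group means for each gene, with its 95% interval over all mice (squares and lines) and within each slide (triangles), in Fcgr2b-ko against WT, which chose the genes, and in double-deficient against Sting-ko. In the second contrast the intervals of Cd300e and Treml4 lie above 0 and those of the other 4 genes include 0.

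The wider gene lists placed these markers among other monocyte genes. The lists were chosen with earlier results of these data known. Their calls in Fcgr2b-ko against WT, the contrast that chose the members, are therefore not independent evidence. Of 15 patrolling monocyte genes beyond the members, 2 passed the limma test in Fcgr2b-ko against WT, both higher. Of all 16400 named genes tested, 13 passed higher and 1 lower. The median log2 difference was 1.69 for the list, against -0.05 over all named genes. Ear2, an eosinophil-associated ribonuclease of a family of near-identical copies, rose by 4.56 (SE 0.68, limma adjusted p = 0.0305), and Pou2f2, a lymphoid and myeloid transcription factor, by 2.27 (SE 0.36, limma adjusted p = 0.0344), the latter being well above background in 1 of 4 WT mice. Both calls were lost with the authors' table and with only the 2 groups compared, that of Pou2f2 also with normexp background correction and with slide as a block. Leaving out 1 of the 16 mice at a time ended the call of Ear2 in 10 fits and that of Pou2f2 in 13, WT replicates 2, 3 and 4, Fcgr2b-ko replicates 1 and 4, every double-deficient mouse and Sting-ko replicate 2 doing so for both. In double-deficient against Sting-ko none of the 15 passed limma. An unadjusted limma p under 0.05 was found for 2 of them, beside 405 of all 16400 named genes, and the median was 0.20. The log2 difference was 2.38 for Adgre4, an adhesion receptor of myeloid cells well above background in 1 of 4 Sting-ko mice. It was 2.34 for Ear2 and 0.28 for Pou2f2. Cx3cr1, the fractalkine receptor, and Nr4a1 differed there by -0.02 and 0.27.

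Of 14 classical monocyte genes tested, none passed in Fcgr2b-ko against WT, where the median was 1.51 and 7 genes had an unadjusted p under 0.05, beside 719 of all 16400 named genes. The largest difference was 3.21 (SE 0.80, limma adjusted p = 0.473) for Lyz2, lysozyme of myeloid cells. In double-deficient against Sting-ko none passed limma, and 1 had an unadjusted p under 0.05, beside 405 of all 16400 named genes. The median was 0.20, with 1.75 (SE 0.80, limma adjusted p = 0.885) for Lyz2. The log2 difference was -0.42 for Ccr2, the chemokine receptor through which classical monocytes leave the marrow.

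The 11 tested genes of monocyte recruitment and growth had a median of 2.12 in Fcgr2b-ko against WT. Beside 13 of all 16400 named genes that passed higher there, 1 of the 11 passed. This was S1pr5, a sphingosine-1-phosphate receptor by which patrolling monocytes leave the marrow, which was at least 3.86-fold higher in Fcgr2b-ko mice (limma adjusted p = 0.0305), since it was not well above background in any WT mouse. Its call was lost with normexp background correction, with the authors' table, with only the 2 groups compared, and without the same 10 single mice as that of Ear2. In double-deficient against Sting-ko the median of these genes was -0.02, and S1pr5, well above background in 1 of 4 Sting-ko mice, differed by 1.67 (SE 0.51, limma adjusted p = 0.885). The 12 tested relatives of Cd300e and Treml4 in the Cd300 and Trem families, with their signalling adaptors, had no limma call in either contrast. Their medians were 2.02 and 0.41. An unadjusted limma p under 0.05 was found for 8 and 0 of them, beside 719 and 405 of all 16400 named genes. Trem2, a lipid-sensing receptor of macrophages, differed by 3.91 (SE 0.75, limma adjusted p = 0.133) in Fcgr2b-ko against WT and by 0.43 in double-deficient against Sting-ko.

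Markers of some other cell types were high in the same Fcgr2b-ko mice, and those of others were not. By limma, none of 13 shared myeloid, 8 kidney macrophage, 9 neutrophil, 14 T and NK cell and 15 interferon-inducible genes tested passed in Fcgr2b-ko against WT, where 9, 7, 1, 2 and 4 of them had an unadjusted p under 0.05, beside 719 of 16400 named genes. The neutrophil genes Cxcr2, Ngp and Mmp9 and the NK cell gene Ncr1 were well above background on fewer than 4 arrays. Averaged over each list relative to the WT mean, Fcgr2b-ko replicates 1 and 4 stood at 2.85 and 2.42 for shared myeloid genes, 3.23 and 2.90 for kidney macrophage genes, 1.67 and 1.01 for neutrophil genes, 2.13 and 1.36 for T and NK cell genes, and 2.39 and 1.63 for interferon-inducible genes. Replicates 2 and 3 stood, in the same order of lists, at 0.37 and 0.49, at 1.09 and 0.74, at -0.24 and 0.57, at -0.28 and -0.45, and at 0.01 and -0.35. For neutrophil genes WT replicate 1 stood at 1.0, close to Fcgr2b-ko replicate 4. In other lists Fcgr2b-ko replicates 1 and 4 did not stand apart. They stood at 1.06 and 0.73 for dendritic cell genes, where Sting-ko replicate 1 stood at 1.08. For B and plasma cell genes they stood at 1.11 and 0.17, below WT replicate 1 at 1.83, and for red cell genes at -0.04 and -0.14. The part of other cell types in the Fcgr2b-ko levels of the monocyte markers was not tested.

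Between double-deficient and Sting-ko mice the same lists were closer. Medians of the log2 difference were 0.17 for shared myeloid, 0.38 for kidney macrophage, 0.41 for neutrophil, -0.35 for T and NK cell and -0.51 for interferon-inducible genes, beside 0.03 over all named genes. The patrolling and the classical list each had a median of 0.20. Cd300e and Treml4, at 2.48 and 1.79, are single genes chosen on measured values, and single genes of the lists also differed more, such as Ear2 at 2.34. The list averages overlapped, at 0.05 to 1.07 in double-deficient and -0.09 to 1.03 in Sting-ko mice for shared myeloid genes. The patrolling list stood at 0.53 to 0.93 in double-deficient mice and at -0.08 to 0.87 in Sting-ko mice, of which replicate 1 was the highest.

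**Figure D3:**
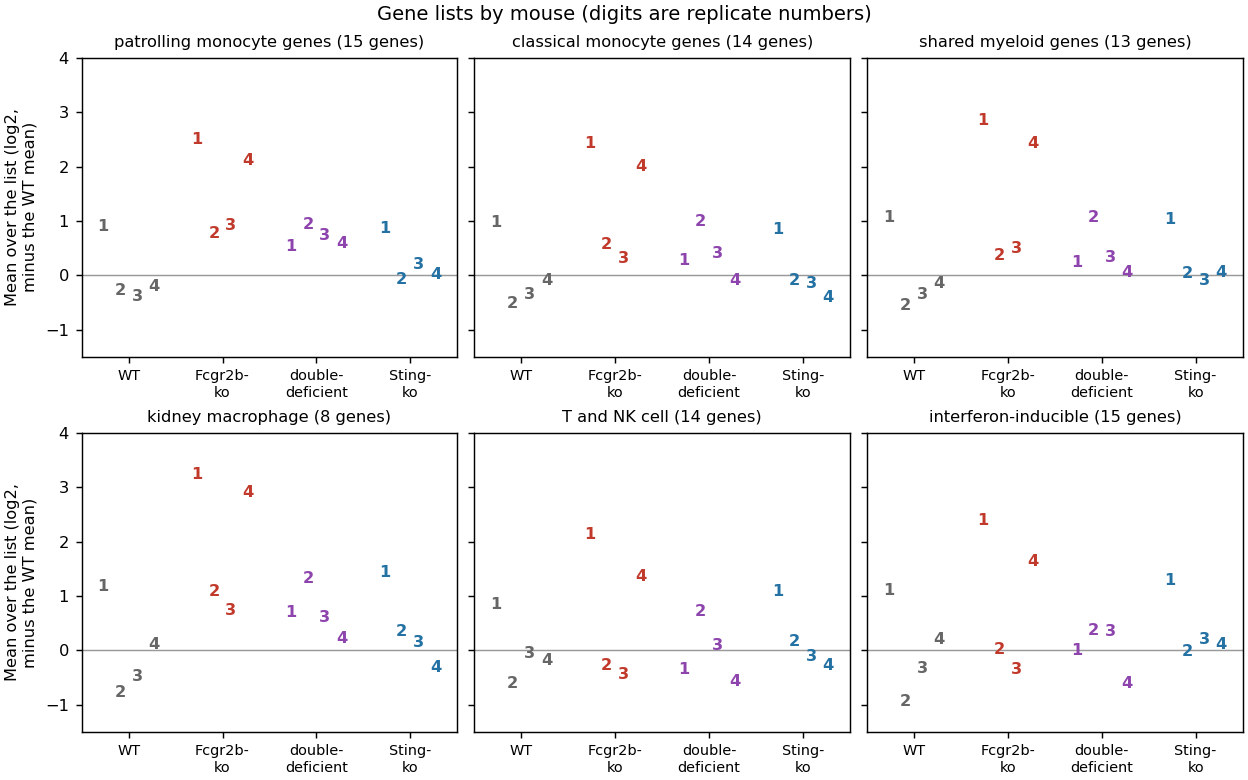
Mean log2 level over the tested genes of 6 lists in every mouse, relative to the WT mean, with digits for the replicate number. Fcgr2b-ko replicates 1 and 4 lie above the other 14 mice in each list, reaching 2.85 for shared myeloid genes.

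Across the 16 mice the gene most like Cd300e was Treml4 (Pearson r = 0.98, and 0.93 after removal of the genotype means), followed by Ear2, Rnase2a, Ear10 and Fpr1. For Treml4 the order was Ear2 (r = 0.99, and 0.96 without genotype means), Ear10, Rnase2a, Cd300e and Ear1. The Ear and Rnase2a probes belong to a family of near-identical copies and may share signal. These correlations are descriptions over arrays that share genotype groups, and Fcgr2b-ko replicates 1 and 4 lie far from the rest.

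Spn was most like Myo1g (r = 0.99), Myo1f, Ncf4, Hmga2-ps1 and Pirb, and correlated with Cd300e at 0.89 and with Treml4 at 0.93, the latter also 0.93 without genotype means. Plac8 was most like Lyn (r = 0.98), Anxa1, Cd48, Aif1 and Cd52, and Chil3 like Fpr2 (r = 0.94), Clec4n, Cyp4f18, Lag3 and Ms4a6c. After Ly6c1, Ly6c2 was most like Ddx52 (r = 0.97), Ube2l3, Ppp2r3c and Tctex1d2. Its correlation with Cd300e was 0.03, with Treml4 0.09 and with Plac8 0.36.

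**Figure D4:**
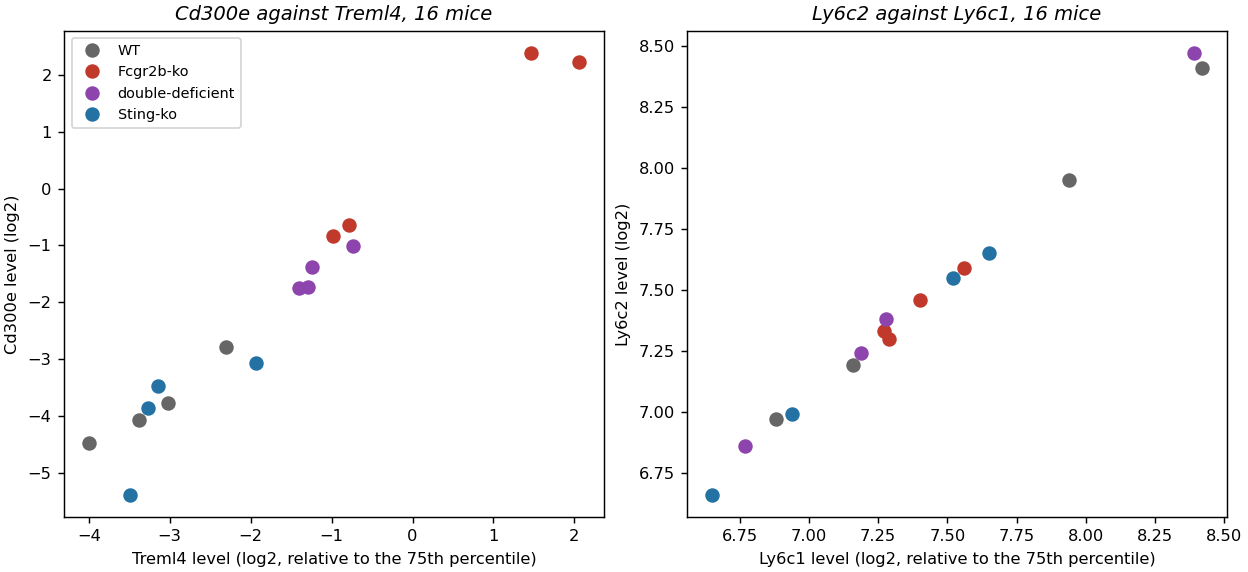
Left, Cd300e against Treml4, and right, Ly6c2 against its near-identical neighbour Ly6c1, as log2 levels relative to the 75th percentile in the same 16 mice. On the left (r = 0.98) double-deficient mice lie above all WT and Sting-ko mice and beside Fcgr2b-ko replicates 2 and 3, with which they overlap for Treml4, while on the right both probes give nearly the same value in each mouse (r = 0.998).

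As a check of the labels, Fcgr2b itself stood at 1.14 to 2.13 in WT, 0.02 to 0.70 in Fcgr2b-ko, -0.40 to 0.50 in double-deficient and -0.19 to 1.54 in Sting-ko mice, and was well above background in all 16. The double-deficient and Sting-ko mice overlapped for it. The Goldenticket allele changes the protein and not necessarily the transcript, so the Sting1 probe, at -0.57 to 0.90 in double-deficient and -0.10 to 1.01 in Sting-ko mice, checks nothing.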

How the data were processed

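Kidney RNA of 16 mice was labelled with Cy3 and hybridised to one-colour Agilent arrays, and the authors extracted spot intensity values with Agilent Feature Extraction 11.0. The deposited processed intensity of each spot was used. The log2 table the authors deposited for the same arrays served as an alternative; its column medians ran from 4.93 to 5.54 and were equal among arrays of the same replicate number.

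Control and outlier spots were left out, log2 intensities of spots of 1 probe were averaged, and the 75th percentile of the array was subtracted. The fit held 35628 of 56605 probes, those that 4 or more of the 16 arrays measured well above background. No spot was saturated. Between 28441 and 35564 probes per array were well above background, and the number of arrays limits the precision. A mean per genotype was fitted with limma 3.58.1 (R 4.3.3), p-values were adjusted by Benjamini-Hochberg over all tested probes, and a call asked an adjusted p under 0.05 and at least 2-fold. The brightest probe stood for a gene. Exact two-sided permutation tests compared the difference of group means over all 70 relabellings of 4 against 4 mice. Exact two-tailed Mann-Whitney tests, the kind used in the study, were run with scipy 1.17.1. The fit was also run on simulated data with independent noise in each array. These data do not imitate mice that move together over many genes. No result given here rests on that run.

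The members and the gene lists were chosen with earlier results of these data known. Genes named in the text were the members, Fcgr2b, Sting1, Ly6c1, genes of a list that were called or had the 2 largest differences, and the 5 genes of highest correlation with a member. Nr4a1, Cx3cr1 and Ccr2 were added by name, after their values were seen, for their known roles. Alternatives were other background correction, scaling, filters, blocks, probes, and mice left out.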

Additional observations from a re-analysis of the deposited data

How the results depend on the processing

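Cd300e and Treml4 kept a positive difference between double-deficient and Sting-ko mice, and stayed past no limma threshold, in every alternative run. The log2 difference ran from 1.23 to 2.77 for Cd300e (17 alternatives, adjusted p 0.629 to 1.0) and from 0.98 to 2.14 for Treml4 (18 alternatives, same range of adjusted p), the lowest value of each under normexp background correction. With 1 mouse left out the ranges were 2.0 to 2.77 and 1.62 to 2.14. The groups of both genes stayed apart under normexp, quantile, median scaling and the authors' table.

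In double-deficient against Sting-ko, the only contrast in which members were tested, no member was called in any fit. The exact Mann-Whitney test without adjustment gave p under 0.05 for 2 members (Cd300e and Treml4, p = 0.029), and with adjustment for 0 (0.841). Like the permutation p, the unadjusted value only restates that the groups did not overlap. Of 35628 tested probes, 508 were higher without overlap in the double-deficient mice. The value is not independent evidence, since results of all mice were known when the genes were chosen. For Spn the sign turned to -0.06 with the median over its probes, and for Plac8 to -0.01 under quantile normalization; with 1 mouse left out Plac8 ran from -0.21 to 0.56 and Ly6c2 from -0.06 to 0.48. The cause was not tested.

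List genes called in Fcgr2b-ko against WT were 3, but 1 under normexp and 0 with the authors' table, with probes above background on all 16 arrays, with only the 2 groups compared, and without Fcgr2b-ko replicates 1 and 4, an alternative chosen after seeing the data. Leaving out single mice of these 2 groups gave 0 to 5: 0 without WT replicate 2, 3 or 4 or Fcgr2b-ko replicate 1 or 4, and 5 without Fcgr2b-ko replicate 2.

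Whether the replicate numbers pair the mice was not settled. In 14 of 48 comparisons the own number was the best correlate, and correlations of same-numbered mice ran from -0.60 to 0.69. For replicates 1 to 4 they were 0.69, 0.60, -0.07 and 0.49 between WT and Fcgr2b-ko. Between WT and double-deficient mice they were -0.60, -0.31, 0.40 and -0.19. With the replicate block the differences were 2.48 (SE 0.59, adjusted p 0.824) for Cd300e and 1.79 (SE 0.49, adjusted p 0.824) for Treml4, and calls over all probes in Fcgr2b-ko against WT went from 18 to 16. Median scaling moved the median of all probes to -0.212 in Fcgr2b-ko against WT and to 0.136 in double-deficient against Sting-ko. Dim probes such as that of Cd300e, not above background in 2 mice, limit the precision.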

Other observations

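Among cell types outside the monocyte lists, none of 8 dendritic cell, 6 B and plasma cell, 5 red cell and 9 kidney genes tested passed limma in any of the 5 contrasts, and at most 1 gene of a list had an unadjusted p under 0.05 in a contrast. In double-deficient against Sting-ko the median log2 difference was -0.40 for dendritic cell genes, with -1.59 (SE 0.99, limma adjusted p = 0.885) for Cd209a and -1.19 (SE 1.0, limma adjusted p = 0.885) for Clec9a, both receptors of dendritic cells. It was -0.10 for B and plasma cell genes, -0.46 for red cell genes and 0.02 for kidney genes. Of 5 eosinophil genes, 4 (Prg2, Epx, Siglecf and Ccr3) were well above background on fewer than 4 arrays, and Il5ra differed by 0.34 (SE 0.89, limma adjusted p = 0.945).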
